A study of Narcissus tazetta subsp. chinensis with 8 samples.

Results

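Plastid fatty acid synthesis was followed through 8 assembled genes of a Chinese narcissus flower, out of 50576 genes that both of the authors' full tables list. The 8 are plastidial pyruvate kinase 2 (c101060.graph_c0), a malonyl-CoA-acyl carrier protein (ACP) transacylase (c100007.graph_c0), a pair of acyl carrier proteins (c90713.graph_c0 and c92992.graph_c0), 3-oxoacyl-ACP synthase I (c110501.graph_c1), a 3-oxoacyl-ACP reductase (c105804.graph_c7), enoyl-ACP reductase [NADH] 1 (c103279.graph_c0) and a palmitoyl-ACP thioesterase (c103026.graph_c0). They were chosen by identifier, with their values known. Each carries a description only because the authors had called it changed between the days in at least 1 tissue. All 8 were called lower on day 7 in corolla, where the authors called 1.83% of 64490 genes lower, and 5 of them were called lower in petal, where 1.01% of 67182 genes were. The falls from day 1 to day 7 behind those calls are therefore given as descriptions, without a test.

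Plants build fatty acids in plastids. Pyruvate is turned into acetyl-CoA, acetyl-CoA carboxylase makes malonyl-CoA from it, and the malonyl group is moved onto acyl carrier protein, which then carries the growing chain through repeated rounds of condensation, reduction, dehydration and a further reduction. Thioesterases end the process by cutting the finished fatty acid from its carrier, and the free acids leave the plastid for membrane lipids, surface wax and other products.

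RNA came from flowers of Narcissus tazetta subsp. chinensis cv Jinzhanyintai, a cultivar studied for its scent and grown outdoors on a plantation without treatment. The 4 groups were corolla on day 1, at early flowering, corolla on day 7, at full bloom, petal on day 1 and petal on day 7, with 2 biological repeats each. The sources used here give neither the number of plants behind a repeat nor the way corolla was parted from petal. Every limma p-value below rests only on the spread between these repeats. It joins the gene's own spread with that of other genes at a similar level. Levels are FPKM, which gives the share of a library's fragments that fall on a gene, corrected for the length of its transcript, so genes can be set beside each other. Relative depth of the 8 libraries ran from 0.678 to 1.03 of that of corolla day 1 repeat 1, and petal day 7 repeat 2 was the shallowest. The ratio of count to FPKM, relative to that library, lay within 10% of each other library's median for 84.1% to 95.6% of 315 genes, in both tissues alike. This compares the length correction gene by gene. A constant factor between the corolla and petal tables would be taken up by the median, so a common scale was assumed and not tested. FPKM of the genes in both tables summed to between 819947 and 888500 in the 8 libraries. In petal day 7 repeat 2 all members but the thioesterase stood 1.20 to 1.83 times as high as in repeat 1, a wider gap than in the corolla groups (0.865 to 1.22 on day 1 and 0.933 to 1.11 on day 7). Repeats of petal on day 1 differed by 0.851 to 1.61 times.

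All 8 genes showed the same order in time in both tissues: every day 1 library lay above every day 7 library. The same separation was found for 33.3% of all genes tested in corolla and 31.0% in petal. All 8 also lay higher in both corolla libraries than in both petal libraries of the same day, which held for 24.2% of genes on day 1 and 19.6% on day 7. Summed over the 8 genes, corolla held 941 ± 28.2 FPKM on day 1 (SD, n = 2) and 318 ± 8.45 on day 7. Petal held 519 ± 17.9 FPKM on day 1 and 198 ± 35.5 on day 7. In whole tissue, fewer cells that express these genes and less RNA of them per cell cannot be told apart.

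**Figure D1:**
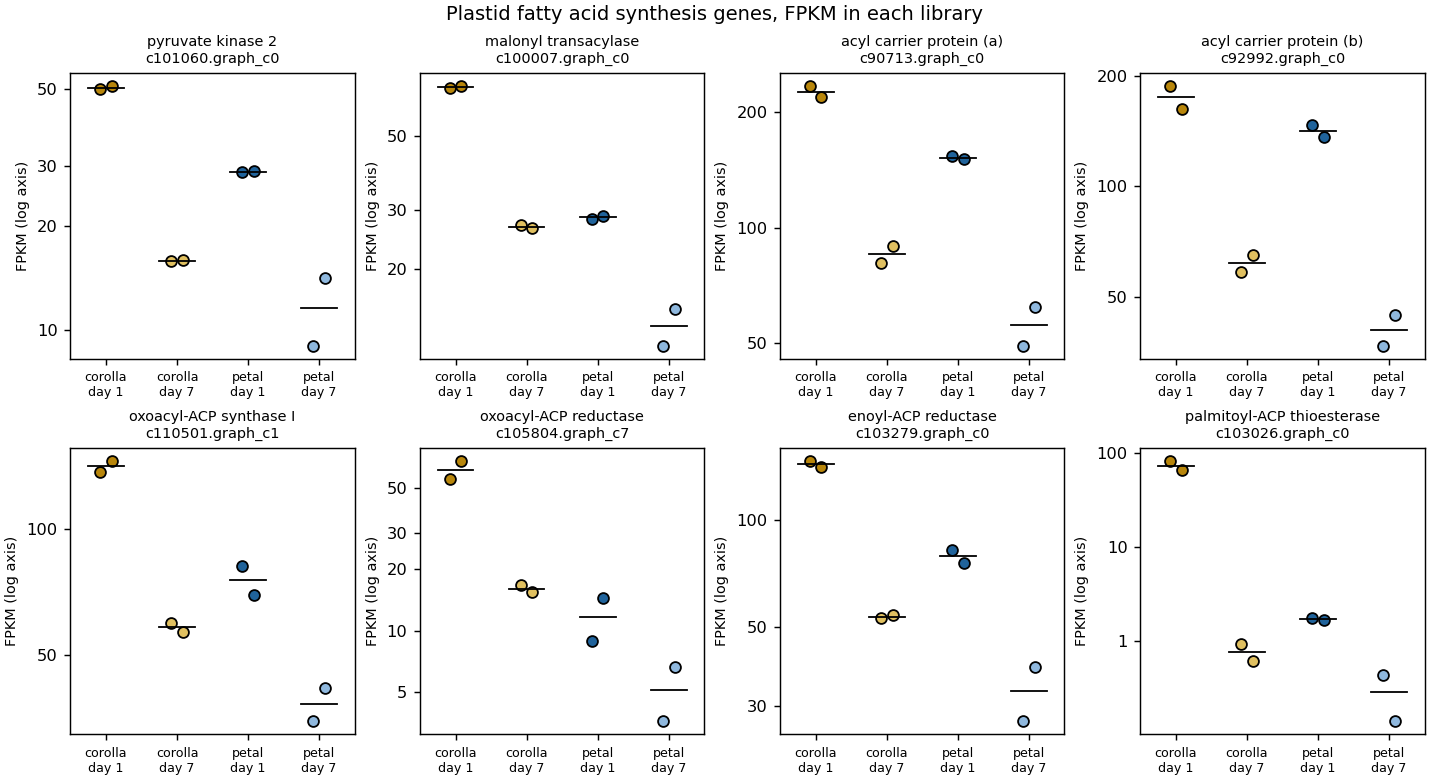
FPKM of each of the 8 genes on a log axis, with 1 point per library (2 per group) and a line at the group mean; each panel has its own range. In every panel corolla on day 1 is highest and petal on day 7 lowest, and in the thioesterase panel petal on day 1 and both day 7 groups lie far below corolla on day 1.

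Carbon enters the pathway through plastidial pyruvate kinase 2, which makes pyruvate from phosphoenolpyruvate inside the plastid. Its level was 50.05 and 51.00 FPKM in corolla on day 1 and 15.81 and 15.91 on day 7. In petal it was 28.75 and 28.85 FPKM on day 1 and 8.97 and 14.13 on day 7. Repeats were close in every group except petal on day 7, and no groups overlapped. The day 7 minus day 1 difference was -1.61 ± 0.09 in corolla and -1.28 ± 0.23 in petal (log2(FPKM + 1), ± SE), or a mean level 3.19 and 2.49 times as high on day 1.

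Malonyl-CoA-ACP transacylase, which loads the malonyl group onto the carrier, had 69.82 and 70.58 FPKM in corolla on day 1 and 26.97 and 26.53 on day 7. Petal held 28.17 and 28.85 FPKM on day 1 and 11.73 and 15.13 on day 7. Petal on day 1 thus stood at nearly the level that corolla reached only on day 7. Its best database match is named as mitochondrial, while its Gene Ontology terms list both the mitochondrion and the chloroplast stroma, so where its product acts is not settled by the annotation. Mitochondria run a small fatty acid synthesis of their own with the same kind of enzyme. The day difference was -1.36 ± 0.08 in corolla.

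Among the 8 genes the carriers were the most abundant. Acyl carrier protein gene c90713.graph_c0 had the highest FPKM of the 8 in each of the 8 libraries, at 233.45 and 218.32 in corolla on day 1, 80.67 and 89.53 in corolla on day 7, 153.19 and 150.63 in petal on day 1, and 49.18 and 61.99 in petal on day 7. The other gene, c92992.graph_c0, stood at 187.74 and 162.32 FPKM in corolla on day 1, 58.32 and 64.89 in corolla on day 7, 146.86 and 136.73 in petal on day 1, and 36.65 and 44.43 in petal on day 7. Both share the Swiss-Prot match acyl carrier protein 1, and reads that fit both could have been split between them in counting. The day difference of c90713.graph_c0 was -1.40 ± 0.09 in corolla and -1.44 ± 0.16 in petal. That of c92992.graph_c0 was -1.49 ± 0.11 in corolla and -1.79 ± 0.15 in petal, the widest petal difference of the 8 on the log2(FPKM + 1) scale, while the thioesterase had the wider ratio of FPKM between the days (6.04 against 3.50). The ratio of c90713.graph_c0 to c92992.graph_c0 was 1.04 and 1.10 in petal on day 1 and between 1.24 and 1.40 in the other 6 libraries. Together the carriers made up 41.3% to 47.7% of the FPKM of the 8 genes in corolla and 47.8% to 56.8% in petal.

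In the elongation cycle, 3-oxoacyl-ACP synthase I carries out most condensations up to a chain of 16 carbons. It had 136.89 and 144.85 FPKM in corolla on day 1 and 59.52 and 56.73 on day 7. Petal held 81.53 and 69.41 FPKM on day 1 and 34.71 and 41.61 on day 7. With a corolla day difference of -1.26 ± 0.08 it had the smallest corolla fall of the 8, a mean level 2.42 times as high on day 1.

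3-Oxoacyl-ACP reductase reduces the keto group left by the condensation. Gene c105804.graph_c7 had 55.56 and 67.58 FPKM in corolla on day 1 and 16.63 and 15.51 on day 7, against 8.92 and 14.40 FPKM in petal on day 1 and 3.60 and 6.60 on day 7. It was the weakest of the cycle genes in petal, and corolla on day 7 still lay above petal on day 1. The day difference was -1.87 ± 0.13 in corolla.

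Enoyl-ACP reductase closes each round by reducing the double bond. Its levels were 145.82 and 140.95 FPKM in corolla on day 1, 52.95 and 54.04 in corolla on day 7, 82.42 and 75.65 in petal on day 1, and 27.29 and 38.76 in petal on day 7. The day difference was -1.41 ± 0.08 in corolla and -1.25 ± 0.20 in petal. It kept close to synthase I throughout, with 0.786 to 1.09 times its FPKM across the 8 libraries.

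Palmitoyl-ACP thioesterase, annotated as fatty acyl-ACP thioesterase B, releases mainly saturated palmitate from the carrier. It did not keep the pattern of the others. Its level was 82.08 and 65.97 FPKM in corolla on day 1 and 0.93 and 0.61 on day 7, and petal held 1.75 and 1.69 FPKM on day 1 and 0.43 and 0.14 on day 7. Only corolla on day 1 was high. The deposited counts behind these values were 2546 and 1701 reads in corolla on day 1, 29 and 14 in corolla on day 7, 56 and 45 in petal on day 1, and 14 and 3 in petal on day 7. Exact Poisson 95% intervals, which cover counting error only, ran from 2448 to 2647 for the highest of these counts and from 0.619 to 8.77 for the lowest. The mean FPKM of corolla on day 1 was 96.1 times that on day 7, and that of petal on day 1 was 6.04 times that on day 7. On the log2(FPKM + 1) scale, which shrinks differences near 0, the day difference was -5.40 ± 0.18 in corolla and -1.09 ± 0.29 in petal. The authors' deposited tables give log2 fold changes of -6.54 in corolla and -2.48 in petal. In petal the gene passed the filter on low values only through its day 1 libraries.

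**Figure D2:**
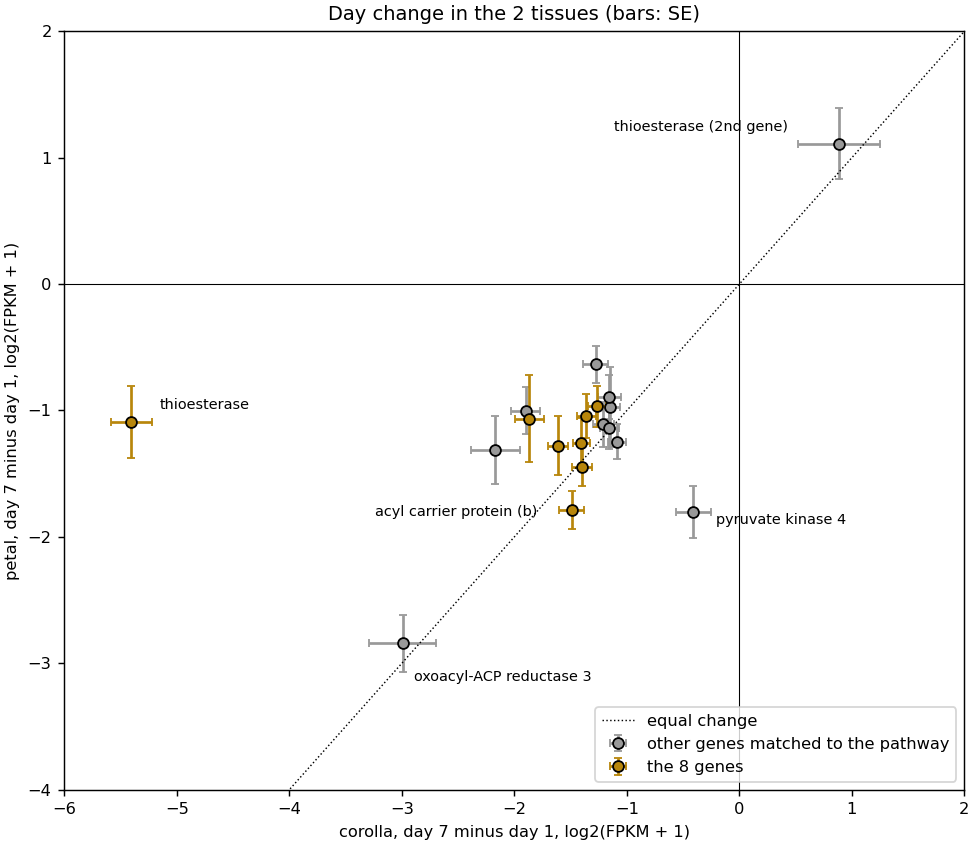
Day 7 minus day 1 difference in corolla (x axis) against petal (y axis), both in log2(FPKM + 1) with SE bars, for the 8 genes and for 11 other genes matched to the pathway; the dotted line marks equal change, and the fits of each tissue used its own 4 libraries. The thioesterase lies at -5.40 in corolla and -1.09 in petal, far from the other 7 genes, which lie between -1.87 and -1.26 in corolla.

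Measured against synthase I, the thioesterase reached 0.600 and 0.455 times its FPKM in corolla on day 1. The ratio was 0.0156 and 0.0108 in corolla on day 7, 0.0215 and 0.0243 in petal on day 1, and 0.0124 and 0.00336 in petal on day 7. The gene supplied 8.54% and 7.16% of the FPKM of the 8 in corolla on day 1 and at most 0.334% in any other library. The corolla day difference minus the petal one was -4.31 ± 0.33 (95% interval -5.06 to -3.56). For the other members called in both tissues it was -0.33 ± 0.27 for pyruvate kinase 2, -0.15 ± 0.23 for enoyl-ACP reductase, 0.04 ± 0.19 for carrier c90713.graph_c0 and 0.30 ± 0.20 for carrier c92992.graph_c0, each with a 95% interval that holds 0. In the fit over all genes the thioesterase alone of the 8 passed limma's FDR of 0.05 for this difference, where 0.654% of 26460 genes passed in either direction and 2.70% of the genes called in both tissues. These values are built from the day differences that chose the genes, so nothing is read from that pass. The intervals are wide: that of pyruvate kinase 2 ran from -0.94 to 0.28, so these 8 libraries leave any difference in its fall within those bounds possible.

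The difference between corolla and petal averaged over both days is a different contrast from the day comparisons that the authors called, and it was fitted across 26460 genes. The levels in all 4 groups were known when the 8 genes were picked, so the p-values below describe these libraries and give no independent support for the members' direction. All 8 members were higher in corolla past limma's FDR of 0.05. The same direction passed for 8.78% of all genes tested, for 30.0% of genes with a description and for 44.5% of the 1156 tested genes that the authors had called lower on day 7 in corolla. The members' median difference was 0.76 on the log2(FPKM + 1) scale, beside -0.08 over all genes and 0.37 over those 1156. Over all genes 2323 were higher and 3511 lower in corolla, and with median-of-ratios scaling the split was 3338 and 3066, while all 8 members still passed as higher.

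The thioesterase had the widest tissue difference, 2.62 ± 0.16 (SE; limma adjusted p = 2.54e-05, higher in corolla in all libraries of each day). It rested on day 1, at 4.78, while on day 7 the difference was 0.47 with a 95% interval from -0.07 to 1.00. The 3-oxoacyl-ACP reductase followed with 1.93 ± 0.20 (limma adjusted p = 0.000305), and its mean FPKM in corolla was 5.28 times that in petal on day 1 and 3.15 times on day 7. Malonyl-CoA-ACP transacylase differed by 1.11 ± 0.10 (limma adjusted p = 0.000143). Enoyl-ACP reductase (0.78 ± 0.11, limma adjusted p = 0.00205) and synthase I (0.75 ± 0.09, limma adjusted p = 0.000949) lay close together.

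The smallest differences were those of pyruvate kinase 2 (0.62 ± 0.13, limma adjusted p = 0.0118), carrier c90713.graph_c0 (0.59 ± 0.10, limma adjusted p = 0.00333) and carrier c92992.graph_c0 (0.45 ± 0.10, limma adjusted p = 0.0131). For c92992.graph_c0 the mean FPKM in corolla was only 1.23 times that in petal on day 1 and 1.52 times on day 7. The call of pyruvate kinase 2 was lost without corolla day 1 repeat 2 (adjusted p = 0.0504). The call of carrier c92992.graph_c0 was lost without corolla day 1 repeat 1 (0.0663) and without petal day 1 repeat 2 (0.0612). The calls of the other 6 members held when any of the 8 libraries was left out.

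**Figure D3:**
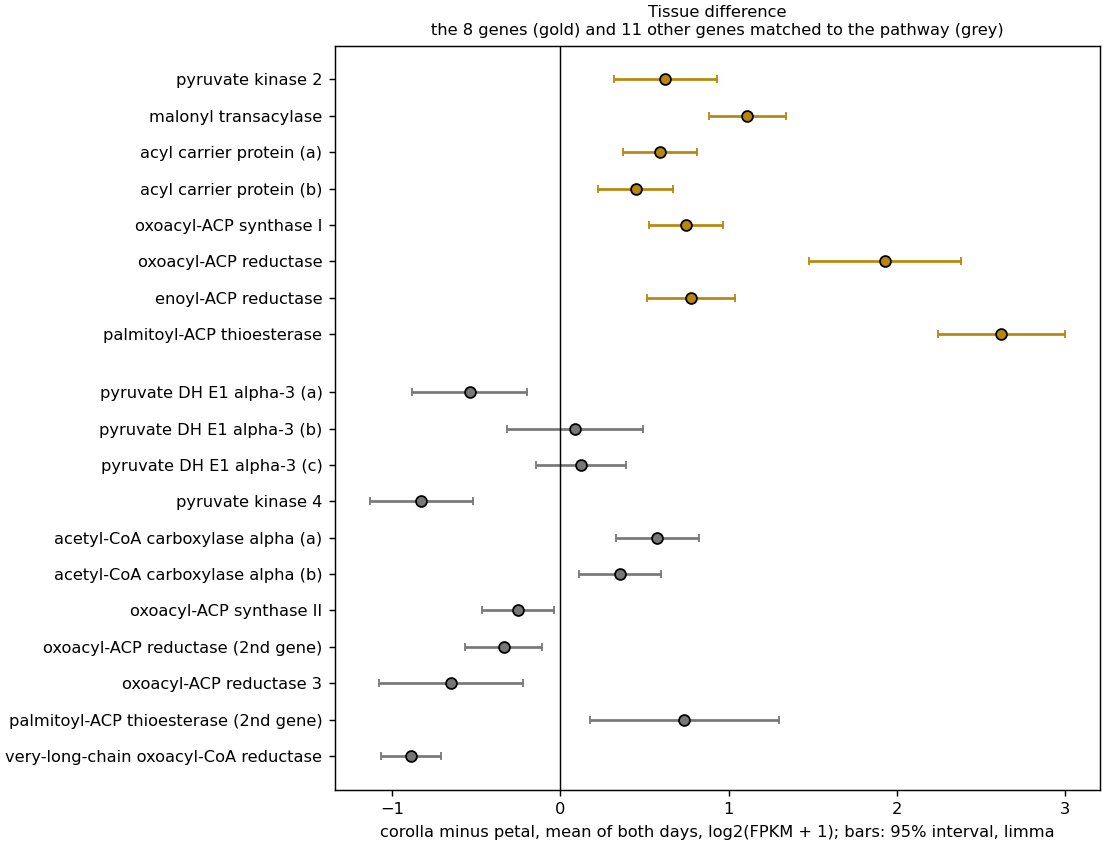
Corolla minus petal, averaged over both days, in log2(FPKM + 1) with 95% intervals from limma, for the 8 genes (gold) and the 11 other genes matched to the pathway (grey). All 8 gold points lie to the right of 0, from 0.45 to 2.62, and the grey points lie on both sides, from -0.89 to 0.74.

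Synthase I, the 3-oxoacyl-ACP reductase and the malonyl transacylase were not called by the authors in petal and carry a description through corolla alone. They are set apart here by that missing call, which used the same petal libraries, and their petal values were known, so the limma values below describe these libraries and nothing is read from them about the members. Their levels above show petal day 1 over petal day 7 in every library. On the log2(FPKM + 1) scale synthase I fell by 0.97 ± 0.16 in petal (SE; limma adjusted p = 0.0272), a mean level 1.98 times as high on day 1. The malonyl transacylase fell by 1.04 ± 0.17 (limma adjusted p = 0.0277), a mean level 2.12 times as high on day 1. For the 3-oxoacyl-ACP reductase the difference was -1.06 ± 0.35 and did not pass (limma adjusted p = 0.113, 95% interval -1.93 to -0.20). It passed with all 8 libraries in the same fit (limma adjusted p = 0.0379) and with the repeat number as a block (0.0431). In petal 6.05% of all 23433 genes tested passed as lower on day 7, and so did 32.4% of the genes that the authors had called lower in corolla and had not called in petal. No gene passed in petal without day 1 repeat 1, without day 1 repeat 2 or without day 7 repeat 1, where 3186, 3594 and 6603 genes had an unadjusted limma p under 0.05. The adjusted p of synthase I was then 0.335, 0.255 and 0.0972, and that of the malonyl transacylase 0.329, 0.280 and 0.0800. The authors' deposited table gives these genes log2 fold changes in petal of -0.97, -1.16 and -1.08, with FDRs of 0.0546 for synthase I, 0.162 for the reductase and 0.0276 for the transacylase, beside a limit of 0.01 that their called genes stayed under. The smallest log2 fold change among their called genes in petal was 1.14 in size.

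A keyword search of the descriptions found 11 further genes for the pathway and its entry steps. In corolla 9 of the 11 were lower on day 7 past limma's FDR of 0.05 and 0 higher, where 15.0% of 22407 genes passed as lower. In petal 8 were lower and 0 higher. At an unadjusted limma p under 0.05, 0 were higher in corolla and 1 in petal. Descriptions exist only for genes the authors called, so these counts carry no weight on direction, and the corolla count of 4820 passing genes was 0 without either of the corolla day 1 libraries. Between the tissues, 2 of the 11 were higher in corolla and 5 were higher in petal, and their median difference was -0.25. Of all genes tested 8.78% passed as higher in corolla and 13.3% as higher in petal. Among described genes these shares were 30.0% and 28.5%. Unlike the members, which were picked with their tissue levels known, these genes lay on both sides of 0 between the tissues.

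Acetyl-CoA carboxylase, which makes malonyl-CoA, was represented by a pair of genes for the alpha subunit of its carboxyl transferase, the ones that were higher in corolla. Gene c104451.graph_c0 had 110.81 and 95.24 FPKM in corolla on day 1, 46.43 and 44.68 in corolla on day 7, 63.58 and 61.25 in petal on day 1, and 28.75 and 38.28 in petal on day 7. Its tissue difference was 0.58 ± 0.11 (limma adjusted p = 0.00659), close to those of the carriers, and that of c104451.graph_c1 was 0.35 ± 0.11 (limma adjusted p = 0.0461). The identifiers share a component of the assembly, and reads could have been split between them.

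The other way round lay a pyruvate dehydrogenase E1 subunit alpha-3 gene, c104613.graph_c0, part of the complex that makes acetyl-CoA. It was far more abundant than any of the 8, at 2081.91 and 1947.24 FPKM in corolla on day 1, 905.28 and 905.64 in corolla on day 7, 2916.83 and 2588.95 in petal on day 1, and 1141.56 and 1717.80 in petal on day 7. It was higher in petal by 0.54 ± 0.15 (limma adjusted p = 0.0338). Genes c75048.graph_c0 and c89000.graph_c0, with the same description, ran at 2.57 to 32.40 FPKM and had tissue differences of 0.09 ± 0.18 and 0.12 ± 0.12 that did not pass (limma adjusted p = 0.791 and 0.510).

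Some steps were matched by more than 1 described gene, and the shares of these genes in their summed FPKM differed between the tissues. Genes that the authors did not call carry no description, so these are not shares of the whole step. Reads could also have been split between similar genes. The Nr match of c105804.graph_c7 is an unnamed protein and its Pfam domain an enoyl-ACP reductase, while Swiss-Prot and KEGG name it as a 3-oxoacyl-ACP reductase. For the 3-oxoacyl-ACP reductase, gene c101066.graph_c0 had 83.25 and 81.22 FPKM in corolla on day 1, 34.93 and 37.89 in corolla on day 7, 103.86 and 102.72 in petal on day 1, and 40.64 and 53.03 in petal on day 7. It was higher in petal by 0.33 ± 0.10 (limma adjusted p = 0.0451), opposite to c105804.graph_c7. Member c105804.graph_c7 gave 40.0% and 45.4% of the summed FPKM of both genes in corolla on day 1 and 32.3% and 29.0% on day 7. In petal it gave 7.91% and 12.3% on day 1 and 8.14% and 11.1% on day 7. A weaker gene, 3-oxoacyl-ACP reductase 3 (c89096.graph_c0), had 8.28 to 14.92 FPKM on day 1 in both tissues and 0 to 1.15 on day 7.

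The shares of the plastidial pyruvate kinase genes differed between the tissues mainly on day 1. Pyruvate kinase 4 (c74579.graph_c0), which the authors called in petal alone, had 13.44 and 12.28 FPKM in corolla on day 1, 10.33 and 8.61 in corolla on day 7, 40.60 and 36.98 in petal on day 1, and 8.65 and 12.48 in petal on day 7. It was high in petal on day 1 only. The petal fall from that level gave the gene its description, so its tissue p-value describes these libraries and gives no independent support. On day 7 its corolla minus petal difference was -0.13 (95% interval -0.56 to 0.30). Its tissue difference was -0.82 ± 0.13 (limma adjusted p = 0.00326), and in corolla, where it was not called, the day difference was -0.41 ± 0.15 and did not pass (limma adjusted p = 0.128). The ratio of pyruvate kinase 2 to pyruvate kinase 4 was 3.72 and 4.15 in corolla on day 1, 1.53 and 1.85 in corolla on day 7, 0.708 and 0.780 in petal on day 1, and 1.04 and 1.13 in petal on day 7. Summed over both genes, day 1 levels were alike in the tissues, at 63.49 and 63.28 FPKM in corolla and 69.35 and 65.83 in petal.

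**Figure D4:**
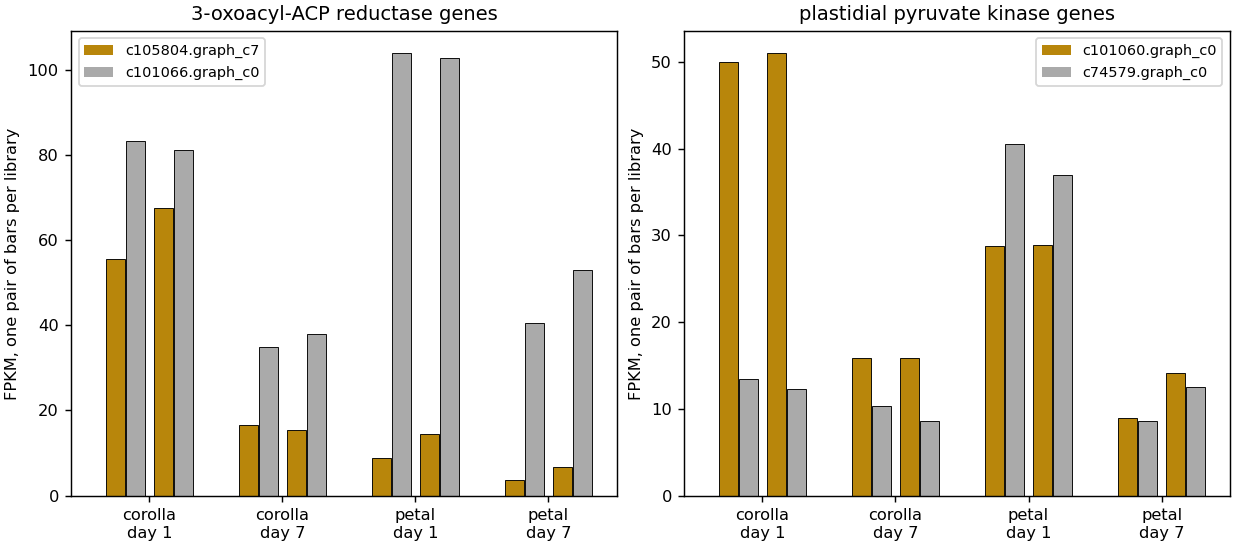
FPKM in each library of the 3-oxoacyl-ACP reductase genes (left) and the plastidial pyruvate kinase genes (right), with the member in gold and the other gene in grey, 1 pair of bars per library. The gold reductase bar is short beside the grey bar in all 4 petal libraries (7.91% to 12.3% of the pair), and pyruvate kinase 4 exceeds pyruvate kinase 2 only in petal on day 1.

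A further palmitoyl-ACP thioesterase gene, c96776.graph_c0, was weak throughout. It had 0.45 and 1.36 FPKM in corolla on day 1, 3.08 and 1.85 in corolla on day 7, was listed at 0 and at 0.05 in petal on day 1, and had 1.30 and 1.13 in petal on day 7. The authors called it higher on day 7 in petal, against the direction of the 8, with a log2 fold change of 5.46 and an FDR of 0.000327 in their deposited table. The limma fit gave a petal day difference of 1.11 ± 0.28 on the log2(FPKM + 1) scale. It did not pass between the tissues (0.74 ± 0.24, limma adjusted p = 0.0651) or between the days in corolla (0.88 ± 0.36, limma adjusted p = 0.157). In the day 7 libraries its FPKM exceeded that of c103026.graph_c0, and in the day 1 libraries it lay below. 3-Oxoacyl-ACP synthase II (c102464.graph_c2), which extends 16-carbon chains to 18, had a tissue difference of -0.25 ± 0.09 that did not pass (limma adjusted p = 0.0925), with 25.21 to 28.84 FPKM on day 1 and 10.70 to 17.52 on day 7. A very-long-chain 3-oxoacyl-CoA reductase (c100383.graph_c0), found by the same keywords but known as an enzyme of elongation at the endoplasmic reticulum, was higher in petal by 0.89 ± 0.08 (limma adjusted p = 0.000138).

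Genes of green tissue were also lower on day 7 and mostly higher in corolla, but by other amounts than the members. They are described only because the authors had called them, so their fall in corolla is a description. Over 32 of them the median corolla day difference was -2.35, beside -1.45 for the members. Their median tissue difference was 1.48, beside 0.76 for the members. The 31 photosynthesis genes in both tables summed to 4858 and 4686 FPKM in corolla on day 1, 1305 and 1107 in corolla on day 7, 1504 and 1503 in petal on day 1, and 586 and 559 in petal on day 7, with at most 1 of them at 0 in any library. The group means of 7 of the 8 members stood in the same order, and in the 3-oxoacyl-ACP reductase alone corolla on day 7 lay above petal on day 1. The share of all genes with that order was not counted, so nothing is read from it. Of the 31, 26 were higher in corolla and 2 higher in petal, where 30.0% of the 1896 described genes tested were higher in corolla and 28.5% higher in petal. The authors had called these photosynthesis genes lower on day 7 in corolla. Of the 1156 tested genes with that call, 44.5% were higher in corolla. The part of green tissue in the members' differences was not tested. The 5 pollen and anther genes summed to 47.6 to 229 FPKM, and none was at 0 in any library. Their sum was highest in corolla on day 7, but the genes did not move together. Gene c32095.graph_c0 rose in corolla from 23.63 and 55.02 FPKM to 99.49 and 63.75. Gene c97442.graph_c0 fell there from 3.94 and 2.23 FPKM to 0.11 and 0.05, and had 65.93 and 40.09 in petal on day 1. Between the tissues 2 of the 5 passed as higher in corolla and 2 as higher in petal. The 4 genes matched for floral organ identity summed to 493 to 529 FPKM in corolla on day 1 and 224 to 231 on day 7. In petal they summed to 283 to 313 FPKM on day 1 and 85.4 to 107 on day 7. MADS-box transcription factor 2 (c106110.graph_c1) led these sums, with 479.27 and 445.93 FPKM in corolla on day 1. The 4 genes did not all move together either. By limma, 2 of the 4 passed as higher on day 7 in corolla and 2 as lower. In petal 1 passed as higher and 2 as lower. The 2 that passed as lower were the same in both tissues, MADS-box transcription factors 2 and 16 (c95429.graph_c0). MADS-box transcription factor 16 had 30.36 and 24.72 FPKM in corolla on day 1 and 7.47 and 4.36 on day 7. In petal it had 20.48 and 12.59 FPKM on day 1 and 3.06 and 5.37 on day 7. The AGL8 homolog (c96931.graph_c0) rose in corolla from 18.64 and 21.51 FPKM to 53.69 and 44.22. The part of these 4 genes in the members' differences was not tested either.

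Genes of neighbouring pathways are described only where the authors had called them. Their counts between the tissues stand beside the shares of all described genes that passed, 30.0% as higher in corolla and 28.5% as higher in petal, and of all genes tested, 8.78% and 13.3%. Of 9 genes matched by keyword for glycolysis or chloroplast carbon metabolism, 5 were higher in corolla and 1 in petal. All 9 passed as lower on day 7 in corolla. Of the 1156 tested genes that the authors had called lower there, 44.5% were higher in corolla than in petal. The 5 included the chloroplast glyceraldehyde-3-phosphate dehydrogenases GAPA1 (c84469.graph_c0, tissue difference 1.61 ± 0.13, limma adjusted p = 9.08e-05) and B (c104757.graph_c0, 1.86 ± 0.15, limma adjusted p = 8.14e-05). Chloroplast phosphoglycerate kinase (c103748.graph_c0) was another, with 83.34 and 86.12 FPKM in corolla on day 1 and 28.81 and 27.89 in petal on day 1 (tissue difference 1.24 ± 0.12, limma adjusted p = 0.000195). Of 6 genes of acyl lipid assembly and desaturation, 0 passed between the tissues by limma, and 1 had an unadjusted p under 0.05. Among them was an endoplasmic reticulum omega-6 desaturase (c98940.graph_c0), which adds the next double bond to oleate, at 425.60 and 350.11 FPKM in corolla on day 1, 26.08 and 24.83 in corolla on day 7, 311.62 and 200.09 in petal on day 1, and 22.20 and 26.81 in petal on day 7. Its tissue difference was 0.34 ± 0.15 (limma adjusted p = 0.144). Of 19 wax and very-long-chain elongation genes, 3 were higher in corolla and 14 in petal, and 3-ketoacyl-CoA synthase 10 (c96585.graph_c0) had 140.65 and 112.99 FPKM in corolla on day 1 beside 470.42 and 478.27 in petal on day 1 (-2.94 ± 0.10, limma adjusted p = 1.39e-06).

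Across the 8 libraries the members kept a common profile with 2 exceptions. The root-mean-square difference of a gene's centred log2(FPKM + 1) from the members' median profile was 0.06 for enoyl-ACP reductase, which was nearest, and at most 0.28 for 6 of the 8. It was 0.63 for the 3-oxoacyl-ACP reductase and 1.67 for the thioesterase. Among 1888 other described genes, the nearest to the median profile were phospholipid-transporting ATPase 10 (c100696.graph_c0, 0.10), cyclase-associated protein 1 (c106291.graph_c1, 0.10), lycopene beta cyclase (c89421.graph_c1, 0.11), cytosolic sulfotransferase 11 (c104368.graph_c0, 0.11) and an uncharacterized protein (c103709.graph_c0, 0.12). None of these 5 is a fatty acid synthesis gene by description. Nearest to the thioesterase were the sugar transporter SWEET4 (c54457.graph_c0, 0.51), chlorophyll a-b binding protein 4 (c107054.graph_c2, 0.54), a pair of uncharacterized genes (c95220.graph_c0, 0.65, and c95220.graph_c2, 0.65) and photosystem I subunit II (c99335.graph_c0, 0.73). All of these distances are descriptions over the same 8 libraries.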

How the data were processed

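RNA-seq of poly-A RNA was made in 8 libraries of 4 groups, with a de novo assembly, per the labels. The submitters' processing notes list Bowtie and RSEM without versions. The authors deposited FPKM per gene in full tables for each tissue, and read counts for their called genes alone, per the file headers. The full tables also hold the authors' FDR, an adjusted p-value, and log2 fold change, per the file headers. No source used here names the tool behind them.

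FPKM was tested as log2(FPKM + 1) with limma 3.58.1 in R 4.3.3, with a trend in the prior variance, two-sided, with Benjamini-Hochberg adjustment over all genes tested at FDR 0.05. Genes needed at least 1 FPKM in 2 libraries. Day effects were fitted within each tissue (4 libraries), and the tissue effect and the difference of day effects over all 8. A count test over all genes was not possible, since counts cover called genes alone, and depth is known only as relative depth from the ratio of counts to FPKM. edgeR 4.0.16 gave TMM factors. Code was tested on simulated data. Python 3.11.15 with pandas 2.3.3 made the summaries and matplotlib 3.10.9 the plots. The members and gene lists were chosen with earlier results of these data known. All members were named, every other gene found for the pathway, at most 3 genes of other lists, and the 5 nearest profiles.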

Additional observations from a re-analysis of the deposited data

Results flagged for a closer look

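The day difference of the palmitoyl-ACP thioesterase (c103026.graph_c0) was not the same in both tissues. The corolla difference minus the petal one was -4.31 on the log2(FPKM + 1) scale, and it passed limma's FDR of 0.05 in the fit of all 8 libraries, where 0.654% of 26460 genes passed, and where 2.70% of the genes called by the authors in both tissues did. The gene was picked out with its corolla fall known, so that pass describes these libraries and gives no independent evidence. Over the alternative settings the difference ran from -4.48 to -3.42, the largest and the smallest size that any setting gave. No group held more than 2 libraries, so no library was checked as standing apart within its group.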

How the results depend on the processing

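The 8 members were higher in corolla under each alternative except no trend in the prior variance and 3 left-out libraries, where 7 passed (range 7 to 8 when a library was left out). The lost calls were those of c92992.graph_c0, with no trend (adjusted p = 0.0520) and without corolla day 1 repeat 1 or petal day 1 repeat 2, and of c101060.graph_c0 without corolla day 1 repeat 2. Of 128 alternative values of the members' tissue difference, 124 kept direction and call. In petal, the calls of c110501.graph_c1 and c100007.graph_c0 were lost with no filter on low FPKM (adjusted p = 0.0915 and 0.0876) and with no trend (0.0628 and 0.0547), and c105804.graph_c7 passed with all 8 libraries in the same fit (0.0379). Of all genes, 2452 passed for the day effect in corolla and 452 in petal with no filter, and 3921 in petal with all 8 libraries. For the difference of day effects, 173 genes passed, 99 with no filter, 315 with a pseudocount of 5, 285 with median-of-ratios scaling, 280 with TMM and 16 with no trend. Leaving out 1 library gave 0 to 2932 genes in corolla (5139 and 5551 at an unadjusted limma p under 0.05 where it was 0), 0 to 2164 in petal, 3735 to 6010 between the tissues and 14 to 216 for the difference of day effects. That difference, which passed for neither gene, ran from -0.40 to 0.093 for c103279.graph_c0, with the opposite sign without petal day 7 repeat 2, and from -0.12 to 0.21 for c90713.graph_c0, with the opposite sign without corolla day 1 repeat 2 (-0.0037), corolla day 7 repeat 2 (-0.03) and petal day 7 repeat 1 (-0.12). The cause of these shifts was not tested. The labels do not say that repeat numbers pair samples; same-numbered deviations correlated across genes at 0.139 between tissues on day 1, 0.293 on day 7 and between -0.0052 and 0.00084 across days. With the repeat number as a block, 3403, 2288, 5755 and 166 genes passed in corolla, in petal, between the tissues and for the difference, 8 members were still higher in corolla, and c105804.graph_c7 passed in petal (adjusted p = 0.0431). TMM scaling moved the corolla split from 1462 higher and 3358 lower to 2004 and 2838. Few counts limit the thioesterase outside corolla on day 1.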

Other observations

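Genes that break fatty acids down stood the other way round in time. The 3 peroxisomal beta-oxidation genes described by the authors' calls were higher on day 7 past limma's FDR of 0.05 in both tissues, beside 1462 of 22407 genes tested in corolla and 966 of 23433 in petal. Because those genes were described through such calls, this is a description of them. Enoyl-CoA hydratase 2 (c103165.graph_c2) had 19.33 and 20.24 FPKM in corolla on day 1 and 59.76 and 53.18 on day 7, and 28.33 and 32.15 in petal on day 1 and 95.03 and 79.06 on day 7. 3-Ketoacyl-CoA thiolase 2 (c100748.graph_c1), which makes the cut that shortens the chain, had 281.73 and 277.35 FPKM in corolla on day 1 and 917.99 and 590.22 on day 7. Between the tissues the hydratase was higher in petal by 0.60 ± 0.10 (SE; limma adjusted p = 0.00341) and acyl-CoA oxidase 4 (c111031.graph_c0), the entry enzyme of the cycle, by 0.44 ± 0.10 (limma adjusted p = 0.0164). The thiolase did not pass (-0.31 ± 0.15, limma adjusted p = 0.197).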
